A study of Sus scrofa with 21 samples.

Results

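Hearts that had been infarcted on postnatal day 1 were compared between days 28 and 14, to ask how the injured border zone changed late after the injury. The comparison takes 5 of the 21 pig heart libraries of the study: the 2 libraries of infarcted hearts collected on day 28 and the 3 collected on day 14, chosen by their labels and not by any measured value. Each library was made from the total RNA of 1 pig. In all 5 pigs the left descending coronary artery had been tied permanently on postnatal day 1, and about 30 mg of tissue was taken from the border of the ischaemic area. These groups are called MI (myocardial infarction) day 28 and MI day 14. Control hearts of the same ages (naive day 28 and naive day 14, 3 pigs each), sampled in the matching region, give the values over the same days without an infarct. They are named naive in the titles, but the protocol has them operated on without the ligation, and the labels do not settle whether an operation took place. No genotype, sex or litter is given for the pigs.

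The border zone is the strip of living muscle beside an infarct, where cardiomyocytes, fibroblasts, vessels and immune cells lie next to the scar. A newborn mammalian heart can still replace lost muscle for a short time after birth, because its cardiomyocytes divide. Over the following weeks most of these cells leave the cell cycle, enlarge and come to rely on fatty acid oxidation. After an infarct, neutrophils and monocytes clear dead tissue first, fibroblasts then lay down collagen, and resident and recruited macrophages remain in the maturing scar.

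The deposited values were read counts per gene, between 49764677 and 95559841 counts in the 5 libraries. Levels are given as CPM (a gene's share of the library's counts, with library sizes scaled by the trimmed mean of M values), and values are listed as replicates 1 and 2 for day 28 and replicates 1, 2 and 3 for day 14. A fold change is the fitted log2 ratio of day 28 to day 14 with its standard error (SE). Calls are made at an adjusted p under 0.05 in edgeR's quasi-likelihood test. CPM values are not divided by gene length, so they are compared between libraries and not between genes.

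Cardiomyocyte genes were abundant in all 5 libraries, as the labelled tissue requires. MYH7, the slow myosin heavy chain of the ventricle, had 26346 and 17667 CPM on day 28 and 31509.7, 26109.6 and 28928 CPM on day 14. The 28 listed sarcomere genes in the table together took 79756 and 64579.5 CPM on day 28 and 115086, 80844 and 89371 CPM on day 14. Of the classical cardiomyocyte markers, TNNI3 was listed at 0 in all 5 libraries, as were CYC1 and RPS27A, which every cell uses, so a 0 for these genes cannot be read as absence. MYH6, IGF2 and H19 were not analysed here.

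The 2 day 28 libraries were less alike than any other pair among the 5. Across genes, their log2 CPM correlated at a Pearson r of 0.929, against 0.967 to 0.975 between day 14 libraries, and MI day 28 replicate 2 resembled MI day 14 replicate 2 more closely (0.972). Between the day 28 libraries 194 genes were at least 4-fold higher in replicate 1 and 675 in replicate 2, while the day 14 pairs differed that much at 241 to 283 genes in either direction. Replicate 1 had the highest share of mitochondrially encoded counts of the 5 libraries, 34.6% against 18.4% to 21.4%, and high adipocyte markers. Replicate 2 had high macrophage, lymphocyte and collagen genes. It also belongs to a set of 4 libraries of the study, 1 in each of 4 groups, that had more than 10 CPM of the transcript ENSSSCG00000018073. No MI day 14 library is in this set, and the labels name no batch. List medians below are therefore given without each of them where that moves the median by over 1.5 times.

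**Figure D1:**
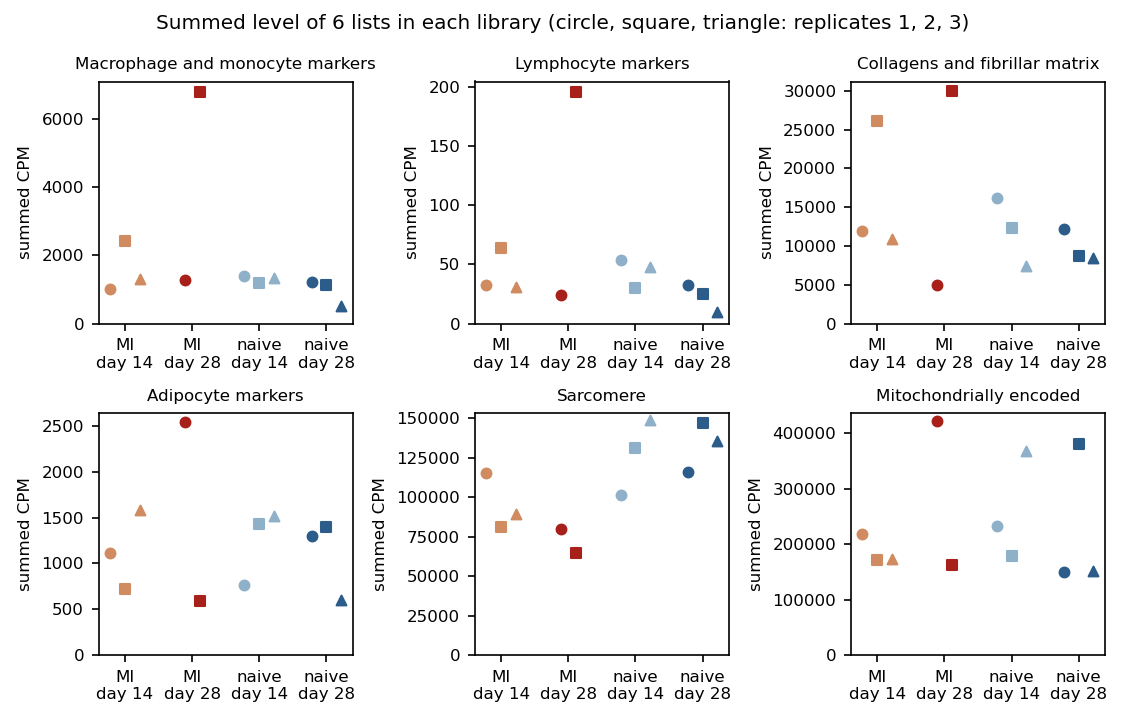
Summed CPM (vertical axis) of 6 gene lists in each MI and naive library of days 14 and 28, 1 point per pig, with the shape giving the replicate number. The macrophage, lymphocyte and collagen sums are highest in MI day 28 replicate 2, while the adipocyte and mitochondrially encoded sums are highest in MI day 28 replicate 1.

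Of 15359 tested genes, 6 were called between MI day 28 and MI day 14 (0.0391%), 4 higher (0.026%) and 2 lower (0.013%) on day 28. Without adjustment, 2294 genes had a p under 0.05 (14.9%), 1249 higher (8.13%) and 1045 lower (6.8%). The day 28 values lay above all day 14 values for 1643 genes (10.7%) and below all of them for 1932 (12.6%). Naive hearts had 0 called genes over the same days, with 177 genes at an unadjusted p under 0.05 (1.15%) by edgeR, and 0 calls by DESeq2 or limma voom. The count in MI hearts depended on the test and the libraries: it was 278 by DESeq2 (1.81%), 0 by limma voom, and 0 when only the 5 libraries were fitted. Dropping MI day 28 replicate 1 gave 237 calls and dropping replicate 2 gave 403, with 10 genes in both. Leaving out MI day 14 replicate 1 or 3 gave 0 calls, and leaving out replicate 2 gave 73.

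Of the 6 called genes 4 were higher on day 28. GADD45G inhibits the mitotic kinase complex of CDK1 and is switched on by stress and differentiation signals. ZFP36 and ZFP36L2 encode zinc finger proteins that bind AU-rich elements in mRNA and speed its decay. NPC2 carries cholesterol out of lysosomes. The 2 lower genes were ACSL3, which activates long-chain fatty acids at the endoplasmic reticulum and lipid droplets, and a gene with no symbol, ENSSSCG00000035340.

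The promoters of the 3 growth arrest and mRNA decay genes are shown because these genes had the smallest p of all genes with a symbol. Each line holds the 250 bases before the RefSeq start on Sscrofa11.1, 5′ to 3′ on the strand of the gene, and capitals mark a TATAAA motif.
GADD45G (chr14:1165750-1165999, plus strand): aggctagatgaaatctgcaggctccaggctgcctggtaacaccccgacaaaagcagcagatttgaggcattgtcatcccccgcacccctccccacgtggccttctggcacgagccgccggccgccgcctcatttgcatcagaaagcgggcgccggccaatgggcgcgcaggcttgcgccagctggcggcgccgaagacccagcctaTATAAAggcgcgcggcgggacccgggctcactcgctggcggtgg
ZFP36L2 (chr3:97200145-97200394, plus strand): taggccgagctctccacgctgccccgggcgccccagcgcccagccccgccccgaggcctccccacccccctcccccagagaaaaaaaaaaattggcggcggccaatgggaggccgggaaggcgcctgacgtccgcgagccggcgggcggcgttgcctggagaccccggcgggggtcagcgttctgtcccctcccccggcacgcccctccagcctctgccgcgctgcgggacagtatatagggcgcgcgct
ZFP36 (chr6:48063482-48063731, plus strand): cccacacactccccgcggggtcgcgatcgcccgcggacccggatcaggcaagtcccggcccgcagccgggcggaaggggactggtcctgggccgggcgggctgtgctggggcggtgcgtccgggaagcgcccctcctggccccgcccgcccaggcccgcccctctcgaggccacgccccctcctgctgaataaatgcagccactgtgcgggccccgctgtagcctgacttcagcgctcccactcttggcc
TATAAA stood 44 bases before the start of GADD45G, and 9.77% of 19556 promoters of the same length hold it on either strand. None of TGANTCA (the AP-1 site), TGACGTCA (the cyclic AMP response element), TTCNNNGAA (a STAT site) or the CArG box was found on either strand in these 3 windows. These motifs occur in 5.27%, 1.7%, 6.12% and 1.31% of all promoters.

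ZFP36 protein binds the nonamer TTATTTATT in 3′ UTRs, its own included, so the 3′ UTRs were searched for it. It was found in 1149 of 17970 annotated 3′ UTRs (6.39%). Among the 5 called genes with a symbol it stood once, in ZFP36 itself, shown with 10 bases on each side and the nonamer in capitals.
ZFP36 3′ UTR (chr6:48066039-48066067, plus strand): tatgacgactTTATTTATTctaatagatt
The annotated 3′ UTRs of GADD45G, ZFP36L2, NPC2 and ACSL3 do not hold these letters.

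GADD45G (chr14:1166000-1167538, plus strand) had 142 and 91.4 CPM on day 28 and 33.00, 26.6 and 21.01 CPM on day 14, so that both day 28 pigs lay above all day 14 pigs. It rose 4.33-fold between the group means, from 26.9 ± 5.999 CPM (SD, n = 3) to 116 ± 35.5 CPM (SD, n = 2) (log2 fold change 2.12, SE 0.29, edgeR adjusted p = 0.0219). Naive hearts had 77.8, 107 and 63.3 CPM on day 28 and 59.8, 84.3 and 85.5 CPM on day 14. The MI day 14 libraries were thus below every naive library, while the MI day 28 libraries spanned the upper end of the naive range and beyond.

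ZFP36 (chr6:48063732-48066235, plus strand) had 228 and 134 CPM on day 28 and 21.9, 42.7 and 44.1 CPM on day 14. This was a rise of 4.99-fold in the mean (log2 fold change 2.32, SE 0.35, edgeR adjusted p = 0.0269), and both day 28 libraries were at least as high as 134 CPM while no day 14 or naive library exceeded 47.1 CPM. Its relative ZFP36L2 (chr3:97200395-97203094, plus strand) had 309 and 336 CPM on day 28 and 93.9, 151 and 110.4 CPM on day 14, a rise of 2.72-fold in the mean (log2 fold change 1.45, SE 0.21, edgeR adjusted p = 0.0269). The naive libraries of both days ranged from 98.4 to 149.6 CPM of ZFP36L2, within the range of the MI day 14 libraries.

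NPC2 (chr7:97730532-97740087, minus strand) had 51.6 and 115 CPM on day 28 and 24.4, 38.5 and 20.8 CPM on day 14 and rose 2.98-fold in the mean (log2 fold change 1.58, SE 0.26, edgeR adjusted p = 0.0423). Its level differed between the day 28 pigs, and without replicate 2 the log2 fold change was 0.90 and the gene was not called. The macrophage marker list, described further on, was also high in replicate 2, and its part in the NPC2 result was not tested. Naive hearts had 24.8 to 28.9 CPM.

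ACSL3 (chr15:124741986-124816955, plus strand) had 20.96 and 21.2 CPM on day 28 and 45.6, 40.4 and 53.8 CPM on day 14. It fell to a mean of 21.1 CPM from 46.6 CPM, 2.21-fold lower (log2 fold change -1.14, SE 0.18, edgeR adjusted p = 0.0341). The day 28 libraries also lay below all 6 naive libraries, which had 28.4 to 40.0 CPM. ENSSSCG00000035340 had 3.92 and 4.98 CPM on day 28 and 33.9, 42.2 and 51.5 CPM on day 14 and fell 9.57-fold in the mean (log2 fold change -3.26, SE 0.53, edgeR adjusted p = 0.0341), while the naive libraries had 29.1 to 68.3 CPM. RefSeq annotates no other gene that overlaps any of the 5 called genes with a symbol.

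**Figure D2:**
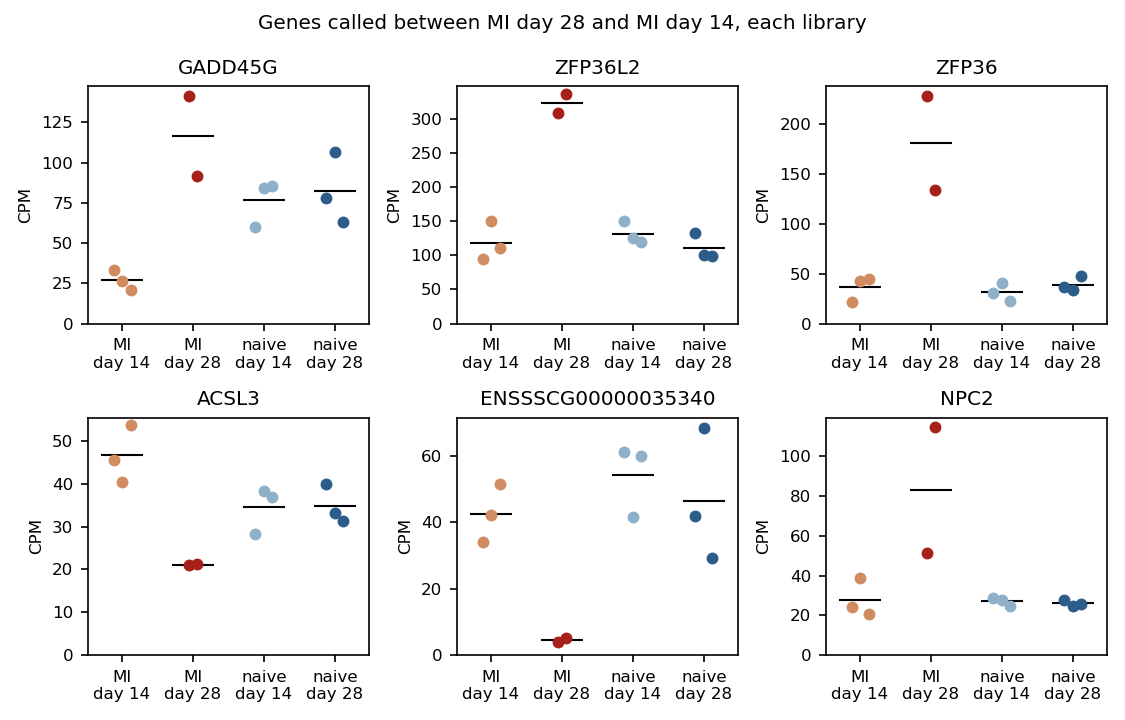
CPM (vertical axis, from 0) of the 6 called genes in each MI and naive library of days 14 and 28, 1 point per pig, with a line at the group mean. The MI day 28 points stand above or below all MI day 14 points in each panel, and the NPC2 points of day 28 are at 51.6 and 115 CPM.

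All of these calls except that of NPC2 held in 8 of 13 alternative analyses, and that of NPC2 in 6. The 5 analyses in which all 6 calls were lost were voom, the fit to the 5 libraries alone, a term for the set of 4 libraries, and the fits without MI day 14 replicate 1 or replicate 3. The direction of each of the 6 genes was the same in all 13.

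Whether the late change differed between MI and naive hearts was tested as an interaction. It called 0 genes by edgeR (smallest adjusted p = 0.323, for ZFP36L2), with 1781 at an unadjusted p under 0.05 (11.6%), and 33 by DESeq2 (0.215%). Among genes with a symbol, the 5 with the smallest p in the higher direction were ZFP36L2, GADD45G, NPC2, RNF125 and EPS8. RNF125, a ubiquitin ligase that restrains antiviral signalling, had 46.8 and 51.6 CPM on day 28 and 21.8, 28.3 and 23.7 CPM on day 14. EPS8, which caps actin filaments, had 66.2 and 48.5 CPM on day 28 and 23.4, 32.8 and 30.9 CPM on day 14. Both were fitted lower over the same days in naive hearts, with log2 fold changes of -0.39 for RNF125 and -0.40 for EPS8. The naive values of RNF125 were 31.7, 36.5 and 20.3 CPM on day 28 and 42.7, 30.9 and 41.9 CPM on day 14. Those of EPS8 were 31.3, 28.7 and 21.1 CPM on day 28 and 41.7, 30.4 and 34.7 CPM on day 14. Among genes with a symbol in the lower direction they were ACSL3, TMEM35A, POPDC2, SORL1 and ZNF827. POPDC2, a membrane protein of cardiomyocytes that binds cyclic AMP, had 79.8 and 85.9 CPM on day 28 and 235, 136 and 258 CPM on day 14. SORL1, a sorting receptor, had 10.3 and 20.5 CPM on day 28 and 56.02, 24.4 and 53.1 CPM on day 14. In naive hearts SORL1 had 65.0, 41.7 and 78.5 CPM on day 28 and 36.7, 56.8 and 41.9 CPM on day 14. Naive hearts had 190.0, 165 and 215 CPM of POPDC2 on day 28 and 101, 190.1 and 156 CPM on day 14, so that their day 28 values lay inside or above the day 14 range.

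From the 50 genes of smallest p, 6 higher ones that missed the threshold are given here, picked after their values were seen. Lower genes and genes whose days overlapped also stood among the 50. AHNAK, a very large scaffold protein under the plasma membrane, came closest with 7.26 and 4.81 CPM on day 28 and 1.95, 1.097 and 1.32 CPM on day 14 (log2 fold change 2.05, SE 0.36, edgeR adjusted p = 0.0515). CSTB, an inhibitor of lysosomal cathepsins, had 81.9 and 89.7 CPM on day 28 and 28.6, 44.00 and 24.8 CPM on day 14 (log2 fold change 1.40, SE 0.27, edgeR adjusted p = 0.126). FTL, the ferritin light chain, had 164 and 309 CPM on day 28 and 76.3, 107 and 75.6 CPM on day 14 (log2 fold change 1.45, SE 0.33, edgeR adjusted p = 0.141). SAT1, which acetylates polyamines, had 170.0 and 191 CPM on day 28 and 37.7, 83.7 and 36.2 CPM on day 14 (log2 fold change 1.78, SE 0.40, edgeR adjusted p = 0.141). PCK2, the mitochondrial enzyme that makes phosphoenolpyruvate, had 11.2 and 12.5 CPM on day 28 and 2.34, 4.39 and 2.36 CPM on day 14 (log2 fold change 1.96, SE 0.41, edgeR adjusted p = 0.141). ADAMTS5, an aggrecan-cleaving protease, had 73.4 and 53.5 CPM on day 28 and 12.7, 19.6 and 13.8 CPM on day 14 (log2 fold change 2.04, SE 0.47, edgeR adjusted p = 0.149). The 2 day 28 libraries lay above all 3 day 14 libraries for each of these 6 picked genes, and for 10.7% of all genes.

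Cell cycle genes were lower on day 28 in the fit, but with no calls, and the day 14 pigs differed widely among themselves. Of 45 tested G2 and mitosis genes 0 were called, 25 had an unadjusted p under 0.05 and all 25 of these were lower, against 6.8% of all genes. The median log2 fold change of the list was -2.00, against 0.01 for all genes. It was -1.45 without MI day 28 replicate 1 and -3.01 without replicate 2, and -0.38 between the naive groups. Replicate 1 had the lowest value of the 5 libraries for 38 of the 45 genes (28.5% of all genes), and replicate 2 was below all 3 day 14 libraries for 13 (30.4% of all genes). DESeq2 called 2 of the list, both lower, against 0.417% of all genes called lower by DESeq2.

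The summed level of the G2 and mitosis list was 244 and 507 CPM on day 28 and 1645, 1131 and 375 CPM on day 14. Naive hearts had 747, 768 and 431 CPM on day 28 and 1358, 795 and 365 CPM on day 14, so the naive pigs of day 14 were also far apart. MKI67, the proliferation antigen, had 19.8 and 145 CPM on day 28 and 85.8, 239.7 and 40.4 CPM on day 14, with the groups overlapping. CCNB1, the cyclin that starts mitosis, had 1.97 and 4.72 CPM on day 28 and 40.95, 21.5 and 5.27 CPM on day 14 (log2 fold change -2.75, SE 1.10, edgeR adjusted p = 0.276). TTK, a spindle checkpoint kinase, had 0.435 and 2.59 CPM on day 28 and 24.8, 9.54 and 3.04 CPM on day 14 (log2 fold change -3.04, SE 1.05, edgeR adjusted p = 0.239). ANLN, which shapes the cleavage furrow, had 6.45 and 11.2 CPM on day 28 and 74.9, 40.2 and 12.4 CPM on day 14 (log2 fold change -2.27, SE 0.76, edgeR adjusted p = 0.238). In each of these 3 the third day 14 pig was close to the second day 28 pig.

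DNA replication genes had a smaller shift of the same sign. Of 37 tested, 0 were called, 7 had an unadjusted p under 0.05, all lower, and the median log2 fold change was -1.10 (-0.55 without MI day 28 replicate 1 and -1.47 without replicate 2), against 0.01 in naive hearts. Over the 13 alternatives it lay between -1.48 and -0.39. RRM1, the large subunit of ribonucleotide reductase, had 36.3 and 45.9 CPM on day 28 and 89.7, 55.7 and 55.2 CPM on day 14 (log2 fold change -0.70, SE 0.24, edgeR adjusted p = 0.238). E2F1, a transcription factor that drives entry into S phase, had 1.12 and 3.05 CPM on day 28 and 24.6, 8.596 and 2.87 CPM on day 14 (log2 fold change -2.53, SE 0.98, edgeR adjusted p = 0.27). The maintenance methyltransferase DNMT1, the other of the 2 most abundant members with RRM1, had 60.5 and 55.1 CPM on day 28 and 76.1, 70.04 and 73.2 CPM on day 14, which is a much narrower range.

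Among the 19 G1 cyclins, kinases and pocket proteins 2 were higher (8.13% of all genes) and 5 lower (6.8%) at an unadjusted p under 0.05. Of the 19, 8 had day 28 values below all day 14 values (12.6% of all genes). CCND1, the cyclin induced by growth factors, had 44.4 and 77.2 CPM on day 28 and 159, 93.7 and 132 CPM on day 14 (log2 fold change -1.08, SE 0.34, edgeR adjusted p = 0.233). CDK6, one of its kinase partners, had 9.59 and 9.34 CPM on day 28 and 49.1, 11.4 and 22.7 CPM on day 14 (log2 fold change -1.55, SE 0.41, edgeR adjusted p = 0.189). CCND2, another member of the cyclin D family, had 166 and 168 CPM on day 28 and 215, 171 and 249.7 CPM on day 14. The arrest genes leaned the other way: 6 of 14 tested CDK inhibitors and growth arrest genes were higher and 1 was lower at an unadjusted p under 0.05, with GADD45G called. Their median log2 fold change was 0.64, and it was 0.22 without MI day 28 replicate 1 and 1.09 without replicate 2. GADD45B, a paralog of GADD45G, had 113 and 33.9 CPM on day 28 and 13.6, 36.1 and 18.8 CPM on day 14 (log2 fold change 1.68, SE 0.45, edgeR adjusted p = 0.189), with replicate 2 inside the day 14 range. TP53INP1, a p53 target, had 73.8 and 56.2 CPM on day 28 and 30.1, 41.5 and 30.5 CPM on day 14 (log2 fold change 0.93, SE 0.27, edgeR adjusted p = 0.21). CDKN2C, an inhibitor of CDK4 and CDK6, was the lower one, with 7.52 and 11.8 CPM on day 28 and 53.96, 34.2 and 13.4 CPM on day 14.

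Immediate early genes, the transcription factors and feedback regulators that respond within minutes to stimulation or stress, had a median above that of all genes with either day 28 pig. Of 26 tested, 15 were higher at an unadjusted p under 0.05 (8.13% of all genes) and 0 lower, 15 had both day 28 values above all day 14 values (10.7%), and ZFP36 was called. DESeq2 called 7, all higher, against 1.39% of all genes. Over the list the median log2 fold change was 1.20, 0.78 without MI day 28 replicate 1 and 1.57 without replicate 2, against -0.02 in naive hearts. Replicate 1 lay above all day 14 libraries for 22 of the 26 genes and replicate 2 for 16, against 29.5% and 29.3% of all genes.

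DUSP1, the phosphatase that switches off stress kinases, had 193 and 235 CPM on day 28 and 32.03, 55.6 and 107 CPM on day 14 (log2 fold change 1.73, SE 0.40, edgeR adjusted p = 0.149). IER2 had 13.8 and 15.3 CPM on day 28 and 5.42, 7.38 and 6.03 CPM on day 14 (log2 fold change 1.21, SE 0.29, edgeR adjusted p = 0.149), and KLF2, a transcription factor of endothelium under flow, had 237 and 106 CPM on day 28 and 56.9, 71.8 and 74.6 CPM on day 14 (log2 fold change 1.34, SE 0.35, edgeR adjusted p = 0.18). BTG2, an antiproliferative gene, had 229 and 274 CPM on day 28 and 50.6, 97.4 and 172 CPM on day 14 (log2 fold change 1.24, SE 0.42, edgeR adjusted p = 0.238), with the third day 14 pig closest to the day 28 pigs. MYC had 89.4 and 34.3 CPM on day 28 and 14.1, 30.4 and 21.9 CPM on day 14 (log2 fold change 1.48, SE 0.42, edgeR adjusted p = 0.205). JUNB was listed at 0 in all 5 libraries. The summed level of the list was 3439.7 and 2102 CPM on day 28 against 773, 925 and 1932 CPM on day 14, so the third day 14 pig came near the second day 28 pig.

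**Figure D3:**
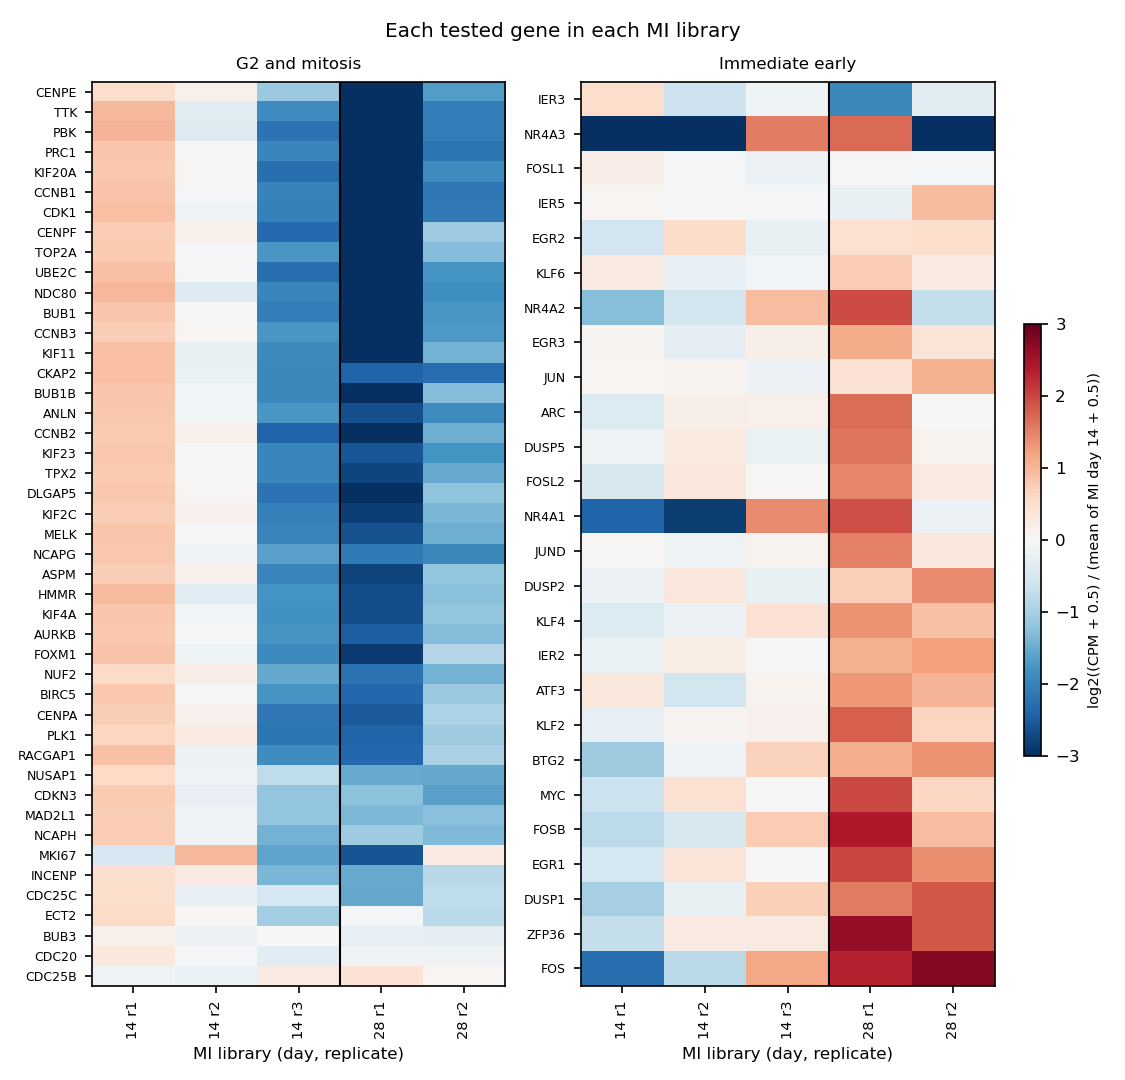
Colour gives log2 of CPM plus 0.5 over the mean of the MI day 14 libraries for each tested G2 and mitosis gene (left) and each immediate early gene (right), in the 3 MI day 14 and 2 MI day 28 libraries, with the scale ending at -3 and 3. The mitosis genes are lowest in day 28 replicate 1 and similar in day 28 replicate 2 and day 14 replicate 3, and most immediate early genes are above the day 14 mean in both day 28 libraries.

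Inflammatory genes also had a median above that of all genes. Of 23 tested cytokine, chemokine and adhesion genes 10 were higher at an unadjusted p under 0.05 (8.13% of all genes) and 0 lower. By edgeR 0 were called, and by DESeq2 2, both higher, against 1.39% of all genes. On the log2 scale the median fold change was 0.82, with 1.01 without MI day 28 replicate 1 and 0.65 without replicate 2, against -0.20 in naive hearts. CXCL2, a chemokine that attracts neutrophils, had 55.1 and 55.8 CPM on day 28 and 3.61, 15.9 and 6.57 CPM on day 14, the same level in both day 28 pigs and above every day 14 pig (log2 fold change 2.67, SE 0.53, edgeR adjusted p = 0.128). TNFAIP3, which restrains NF-kappa-B signalling, had 15.8 and 40.6 CPM on day 28 and 12.3, 11.6 and 7.48 CPM on day 14 (log2 fold change 1.43, SE 0.31, edgeR adjusted p = 0.141). NFKBIA, the inhibitor that holds NF-kappa-B in the cytoplasm, had 148 and 93.7 CPM on day 28 and 45.3, 66.6 and 69.9 CPM on day 14. VCAM1, an adhesion molecule, had 41.9 and 172 CPM on day 28 and 30.6, 148 and 40.04 CPM on day 14, with the second pig of each day far above the others.

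Macrophage and monocyte markers separated the 2 day 28 pigs. Of 27 tested, 0 were called by edgeR, and 19 were higher at an unadjusted p under 0.05 (8.13% of all genes) and 0 lower. DESeq2 called 9, all higher, against 1.39% of all genes. Their median log2 fold change was 1.83, 2.496 without MI day 28 replicate 1 and -0.01 without replicate 2. Replicate 2 had the highest value of the 5 libraries for 26 of the 27 genes (23.1% of all genes). Replicate 1 had it for 0 (25.0% of all genes) and lay above all day 14 libraries for 6 (29.5%). In bulk tissue, more cells of a type and more RNA per cell cannot be told apart.

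The summed macrophage level was 1284 and 6782 CPM on day 28 and 1025, 2406 and 1291 CPM on day 14. In naive hearts it was 1211, 1134 and 519 CPM on day 28 and 1407, 1177 and 1331 CPM on day 14. CD68, a lysosomal protein of macrophages, had 7.37 and 98.3 CPM on day 28 and 4.07, 14.3 and 8.01 CPM on day 14, and CD163, the scavenger receptor for haemoglobin, had 82.2 and 798 CPM on day 28 and 17.1, 63.8 and 92.6 CPM on day 14. LYVE1, found on resident macrophages and lymphatic vessels, was one of the 6 members above all day 14 libraries in both day 28 pigs, with 41.9 and 61.5 CPM on day 28 and 8.78, 20.3 and 14.2 CPM on day 14 (log2 fold change 1.84, SE 0.40, edgeR adjusted p = 0.141). TREM2, a receptor of lipid-handling macrophages, had 1.83 and 14.7 CPM on day 28 and 0.739, 1.46 and 0.569 CPM on day 14 (log2 fold change 3.16, SE 0.71, edgeR adjusted p = 0.141), and CD14 had 22.3 and 60.04 CPM on day 28 and 4.101, 17.6 and 10.6 CPM on day 14 (log2 fold change 1.93, SE 0.51, edgeR adjusted p = 0.18). CTSB, a lysosomal cathepsin and one of the 2 most abundant members, had 344 and 727 CPM on day 28 and 265, 352 and 235 CPM on day 14, while the other, CD74, the invariant chain of MHC class II, had 310.1 and 847 CPM on day 28 and 444, 897 and 395 CPM on day 14. The CD74 values of the days overlapped, and 0 of the 6 tested MHC class II genes had an unadjusted p under 0.05.

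**Figure D4:**
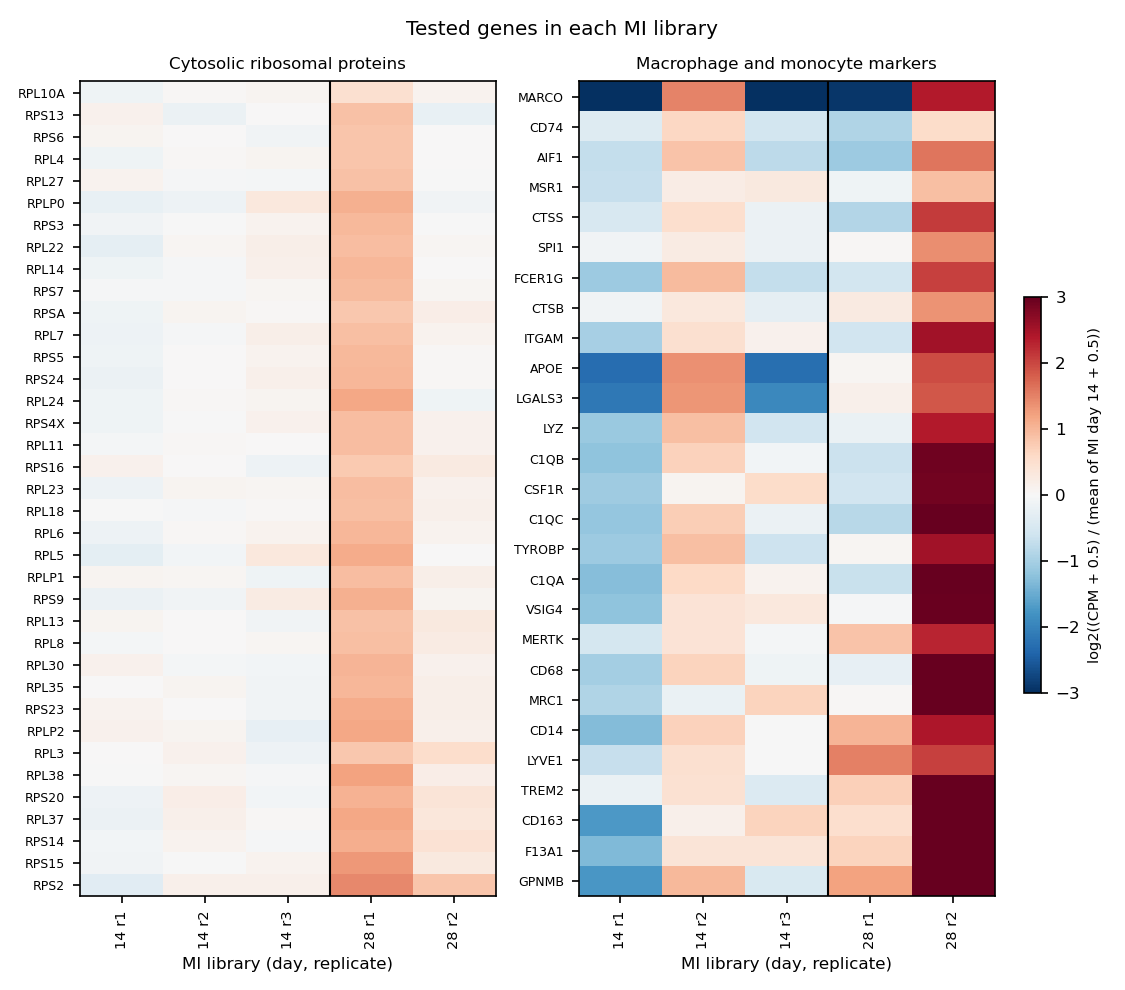
Colour gives log2 of CPM plus 0.5 over the mean of the MI day 14 libraries for tested cytosolic ribosomal protein genes (left) and each macrophage and monocyte marker (right), in the 3 MI day 14 and 2 MI day 28 libraries, with the scale ending at -3 and 3. Ribosomal protein genes are highest in day 28 replicate 1 for all those shown, and macrophage markers are highest in day 28 replicate 2 for 26 of 27.

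Lymphocyte and neutrophil sums were also highest in MI day 28 replicate 2. The lymphocyte sum was 23.96 and 196 CPM on day 28 and 32.5, 64.1 and 30.5 CPM on day 14. Replicate 2 had the highest value for 14 of 21 tested lymphocyte genes (23.1% of all genes) and replicate 1 the lowest for 14 (28.5%). CD4 had 1.103 and 43.9 CPM on day 28 and 2.41, 4.76 and 6.88 CPM on day 14, and JCHAIN, the joining chain of secreted antibodies, had 2.63 and 67.6 CPM on day 28 and 1.602, 3.48 and 1.68 CPM on day 14. CD79A, a part of the B cell receptor, was alike in the day 28 pigs, with 3.56 and 3.64 CPM on day 28 and 0.933, 1.905 and 1.56 CPM on day 14 (log2 fold change 1.29, SE 0.44, edgeR adjusted p = 0.238). Neutrophil markers were sparse, at 10.7 and 80.9 CPM on day 28 and 6.92, 43.9 and 7.76 CPM on day 14 in sum. Replicate 2 had the highest value for 5 of 9 tested neutrophil genes (23.1% of all genes). All 9 were fitted higher, 3 at an unadjusted p under 0.05 (8.13% of all genes), and 0 were called. Their median log2 fold change was 0.86, 1.48 without replicate 1 and -0.38 without replicate 2. FCN1 had 2.502 and 22.6 CPM on day 28 and 1.71, 4.79 and 3.395 CPM on day 14. CSF3R had 0.824 and 17.4 CPM on day 28 and 1.07, 2.86 and 0.873 CPM on day 14. For both, only replicate 2 lay above all day 14 libraries. MPO, ELANE and MMP8, which mark neutrophil granules, were each at most 0.135 CPM in all 5 libraries.

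The collagen and fibrillar matrix list had no common direction. Its median log2 fold change was 0.03 with both day 28 libraries, 0.72 without replicate 1 and -1.42 without replicate 2, and 0 of 32 tested genes were called. The sum was 4905 and 29968 CPM on day 28 and 11961, 26181 and 10877 CPM on day 14, so the second pig of each day was the highest of its group. COL1A1 had 399.9 and 6435 CPM on day 28 and 1760.4, 5734 and 1361 CPM on day 14, and COL3A1 had 471 and 8482 CPM on day 28 and 2409, 6605 and 3309 CPM on day 14. POSTN, a matrix protein of activated fibroblasts, had 26.2 and 601 CPM on day 28 and 129, 371 and 145 CPM on day 14. ELN, the elastin gene, had 99.9 and 115 CPM on day 28 and 604, 185 and 158 CPM on day 14, and COL11A1, a minor fibrillar collagen, had 0.622 and 0.389 CPM on day 28 and 1.87, 10.2 and 0.932 CPM on day 14, both with day 28 below all day 14 values.

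Matrix-modifying genes had no calls by edgeR and separated the 2 day 28 pigs. Of 34 tested matricellular, crosslinking and protease genes 7 were higher (8.13% of all genes) and 0 lower at an unadjusted p under 0.05. DESeq2 called 4, all higher, against 1.39% of all genes. Over these genes the median log2 fold change was 0.44, and it was 0.45 without MI day 28 replicate 1 and -0.79 without replicate 2. Replicate 2 lay above all day 14 libraries for 17 of the 34 genes (29.3% of all genes). Replicate 1 lay below them for 11, near the share of all genes (33.4%). MMP2, a gelatinase and one of the 2 most abundant members, had 439.8 and 996 CPM on day 28 and 182, 573 and 202 CPM on day 14 (log2 fold change 1.17, SE 0.46, edgeR adjusted p = 0.27), and SPARC, the other, had 834 and 2236 CPM on day 28 and 1393, 2358 and 758 CPM on day 14. PLAU and its receptor PLAUR, which activate plasminogen at the cell surface, were above all day 14 values in both day 28 pigs: PLAU had 35.6 and 55.3 CPM on day 28 and 18.4, 31.01 and 14.3 CPM on day 14 (log2 fold change 1.10, SE 0.38, edgeR adjusted p = 0.24) and PLAUR had 8.61 and 13.9 CPM on day 28 and 3.41, 6.85 and 3.78 CPM on day 14 (log2 fold change 1.26, SE 0.37, edgeR adjusted p = 0.21). Other members were high in replicate 1 alone, among them THBS1 and ADAMTS4. THBS1, an activator of TGF beta, had 1153 and 153 CPM on day 28 and 83.7, 107 and 208 CPM on day 14, and ADAMTS4, an aggrecanase, had 125 and 4.71 CPM on day 28 and 4.01, 6.92 and 4.07 CPM on day 14.

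Fibroblast markers and the TGF beta pathway had 0 called genes. The fibroblast list had a median log2 fold change of 0.34 over 17 tested genes, 0.68 without MI day 28 replicate 1 and -0.22 without replicate 2. Replicate 2 lay above all day 14 libraries for 10 of the 17 genes (29.3% of all genes). GSN, an actin-severing protein, had 1118 and 1052 CPM on day 28 and 498, 806 and 869.9 CPM on day 14, and VIM, the intermediate filament of mesenchymal cells, had 1218 and 1879.9 CPM on day 28 and 981, 1307 and 437 CPM on day 14. CFD, a complement protease also made by adipocytes, had 188 and 124 CPM on day 28 and 20.4, 34.2 and 48.9 CPM on day 14 (log2 fold change 2.17, SE 0.73, edgeR adjusted p = 0.238). In the TGF beta list, 2 of 27 tested genes were higher and 0 lower at an unadjusted p under 0.05, against 8.13% and 6.8% of all genes. TGFB1 had 65.3 and 83.4 CPM on day 28 and 50.7, 67.8 and 46.02 CPM on day 14, and TGFBR3, the co-receptor betaglycan, had 159 and 73.6 CPM on day 28 and 47.6, 66.5 and 57.4 CPM on day 14 (log2 fold change 1.02, SE 0.33, edgeR adjusted p = 0.234).

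Contractile and calcium genes had medians below that of all genes. Of 27 tested sarcomere genes 0 were called, and 5 were lower (6.8% of all genes) and 0 higher at an unadjusted p under 0.05. Both day 28 values lay below all day 14 values for 8 (12.6% of all genes). The median log2 fold change was -0.44 (0.08 in naive hearts), with a range of -0.52 to -0.32 over the 13 alternatives. ACTC1, cardiac alpha actin, had 2646 and 5246 CPM on day 28 and 11656, 6187 and 12160.0 CPM on day 14 (log2 fold change -1.34, SE 0.37, edgeR adjusted p = 0.191). NEXN, which anchors actin at the Z disc, had 370.2 and 354 CPM on day 28 and 712, 489 and 854 CPM on day 14 (log2 fold change -0.92, SE 0.28, edgeR adjusted p = 0.226). ACTA1, skeletal alpha actin, had 2569 and 7004 CPM on day 28 and 11567, 7529 and 2353 CPM on day 14, and TNNI1, the fetal slow troponin I, had 248 and 399 CPM on day 28 and 903, 274 and 870.0 CPM on day 14, both with overlapping groups.

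Of 23 tested calcium handling and excitation genes 3 were lower (6.8% of all genes) and 0 higher (8.13%) at an unadjusted p under 0.05. In both day 28 pigs 10 were below all day 14 values (12.6% of all genes). The median log2 fold change of -0.46 was -0.76 without MI day 28 replicate 1 and -0.17 without replicate 2. CASQ2, the calcium store of the sarcoplasmic reticulum, had 161 and 152 CPM on day 28 and 367, 263 and 439.5 CPM on day 14 (log2 fold change -1.19, SE 0.45, edgeR adjusted p = 0.255). CAMK2D, a calcium-dependent kinase, had 253 and 174 CPM on day 28 and 428, 283 and 471 CPM on day 14 (log2 fold change -0.89, SE 0.33, edgeR adjusted p = 0.251). ATP2A2, the calcium pump of the sarcoplasmic reticulum, had 4528 and 1575 CPM on day 28 and 3711, 2862 and 6039.6 CPM on day 14, with wide overlap.

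Cardiac transcription factors came next, with 10 of 28 tested genes lower and 1 higher at an unadjusted p under 0.05, and a median log2 fold change of -0.45 (-0.61 without MI day 28 replicate 1, -0.31 without replicate 2 and 0.11 in naive hearts). HAND1, a factor of the left ventricle, had 8.25 and 19.2 CPM on day 28 and 43.1, 37.00 and 33.98 CPM on day 14 (log2 fold change -1.47, SE 0.34, edgeR adjusted p = 0.149). TEAD1, the DNA-binding partner of YAP, had 22.98 and 21.1 CPM on day 28 and 79.2, 32.5 and 51.3 CPM on day 14 (log2 fold change -1.30, SE 0.39, edgeR adjusted p = 0.213). MEF2A, the most abundant member together with MEF2D, had 184 and 142 CPM on day 28 and 212, 172 and 249.6 CPM on day 14. Natriuretic and stress genes varied between pigs without following the day: NPPA had 1.52 and 70.6 CPM on day 28 and 18.7, 37.6 and 156 CPM on day 14, and NPPB had 4.65 and 42.03 CPM on day 28 and 5.42, 8.04 and 3.01 CPM on day 14. NPR1, the receptor of both peptides, had 84.3 and 47.8 CPM on day 28 and 43.2, 29.1 and 27.6 CPM on day 14 (log2 fold change 0.99, SE 0.34, edgeR adjusted p = 0.239).

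Glycolytic genes had a median below that of all genes. Of 24 tested glycolysis and glucose transport genes 10 were lower and 1 higher at an unadjusted p under 0.05 and 0 were called, with a median log2 fold change of -0.59 against 0.06 in naive hearts. The median was -0.86 without MI day 28 replicate 1, -0.36 without replicate 2 and -0.19 without MI day 14 replicate 1. PKM, pyruvate kinase, had 885 and 1112 CPM on day 28 and 3296, 1396 and 1600.2 CPM on day 14 (log2 fold change -1.07, SE 0.36, edgeR adjusted p = 0.238), and HK1, hexokinase, had 234 and 244 CPM on day 28 and 619, 412 and 319.6 CPM on day 14 (log2 fold change -0.91, SE 0.30, edgeR adjusted p = 0.238). SLC16A1, the lactate transporter, had 116 and 157 CPM on day 28 and 301, 222 and 291 CPM on day 14 (log2 fold change -0.99, SE 0.24, edgeR adjusted p = 0.149). PFKFB3, which makes the activator of phosphofructokinase, was the higher one, with 21.9 and 40.7 CPM on day 28 and 16.4, 9.97 and 9.26 CPM on day 14 (log2 fold change 1.40, SE 0.38, edgeR adjusted p = 0.191). The most abundant members, GAPDH with 10929 and 4270.2 CPM on day 28 and 9583, 7699.7 and 7588 CPM on day 14 and ALDOA with 4246 and 2004 CPM on day 28 and 6097, 2835 and 2897 CPM on day 14, overlapped between the days.

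The citric acid cycle list had a median log2 fold change of -0.48 over 20 tested genes, with 6 lower (6.8% of all genes) and 1 higher (8.13%) at an unadjusted p under 0.05. It was -0.66 without MI day 28 replicate 1, and -0.23 without either MI day 28 replicate 2 or MI day 14 replicate 1. MDH2, the mitochondrial malate dehydrogenase, had 1463 and 930.0 CPM on day 28 and 2314, 1251 and 1452 CPM on day 14. DLAT, the acetyltransferase of the pyruvate dehydrogenase complex, had 135 and 142 CPM on day 28 and 357, 169 and 256 CPM on day 14 (log2 fold change -0.91, SE 0.30, edgeR adjusted p = 0.238). PC, pyruvate carboxylase, was the higher one and was high in replicate 1, with 35.9 and 6.26 CPM on day 28 and 2.45, 4.59 and 4.06 CPM on day 14 (log2 fold change 2.51, SE 0.56, edgeR adjusted p = 0.141), a log2 fold change of 0.78 without that library. In both DLAT and PKM the first day 14 pig was the highest.

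Fatty acid uptake and oxidation had 6 of 31 tested genes lower (6.8% of all genes) and 2 higher (8.13%) at an unadjusted p under 0.05, with a median log2 fold change of -0.36. This median was -0.49 without MI day 28 replicate 1, -0.14 without replicate 2, and -0.13 and -0.57 without MI day 14 replicates 1 and 2. ACSL1, the main long-chain acyl-CoA synthetase of heart muscle and a relative of the called ACSL3, had 201 and 206 CPM on day 28 and 562, 294 and 419 CPM on day 14 (log2 fold change -1.06, SE 0.40, edgeR adjusted p = 0.259). ACADM, the medium-chain dehydrogenase, had 188 and 157 CPM on day 28 and 359, 227 and 279 CPM on day 14 (log2 fold change -0.74, SE 0.26, edgeR adjusted p = 0.239). HADHA, part of the trifunctional protein, had 863 and 574 CPM on day 28 and 1267, 613 and 862 CPM on day 14, and LPL, lipoprotein lipase, had 1704 and 329 CPM on day 28 and 613, 437 and 1315 CPM on day 14. Nuclear genes of respiratory complexes had median log2 fold changes of -0.22 over 33 tested genes of complex I, and -0.21 over 33 of complexes II to V. Both medians changed sign when MI day 14 replicate 1 was left out, and that of complex I also without MI day 28 replicate 2. Without MI day 28 replicate 1 the medians of complex I and of complexes II to V were -0.44 and -0.52, and without replicate 2 they were 0.05 and -0.05. The 13 mitochondrially encoded genes had a median log2 fold change of 0.65, which was -0.16 without MI day 28 replicate 1 and 1.05 without replicate 2, and COX1 had 154878 and 46748 CPM on day 28 and 67883, 46349 and 48327 CPM on day 14.

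Cytosolic ribosomal protein genes all had the same sign in the fit. All 38 tested had a fitted log2 fold change above 0, from 0.43 to 1.37 with a median of 0.61. Of these 23 were higher at an unadjusted p under 0.05 (8.13% of all genes) and 0 were called. Replicate 1 had the highest value of the 5 libraries for all 38 (25.0% of all genes). Replicate 2 lay above all day 14 libraries for 21 (29.3% of all genes). The median was 0.17 without replicate 1 and 1.00 without replicate 2, against 0.16 in naive hearts. RPS20 had 1072 and 676 CPM on day 28 and 469, 595 and 492 CPM on day 14 (log2 fold change 0.75, SE 0.24, edgeR adjusted p = 0.236), and RPL6, the most abundant member with RPLP0, had 1841 and 989.8 CPM on day 28 and 833, 942 and 1002 CPM on day 14. Several ribosomal protein genes have near-identical pseudogene copies, so their counts are less certain. The mitochondrially encoded share was also highest in replicate 1, and its part in this result was not tested.

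Heat shock and chaperone genes had a median below 0 with either day 28 pig. Of 23 tested, 8 were lower and 0 higher at an unadjusted p under 0.05, 11 were below all day 14 values in both day 28 pigs (12.6% of all genes), and 0 were called. The median log2 fold change was -0.57 (0.08 in naive hearts), with -0.68 to -0.43 over the 13 alternatives. HSPA8, the constitutive HSP70, had 758 and 989.8 CPM on day 28 and 1498, 954 and 1947 CPM on day 14 (log2 fold change -0.75, SE 0.31, edgeR adjusted p = 0.287). HSPD1, the mitochondrial chaperonin, had 141 and 145 CPM on day 28 and 337, 175 and 252 CPM on day 14 (log2 fold change -0.83, SE 0.29, edgeR adjusted p = 0.24), and HSP90B1, of the endoplasmic reticulum, had 260.3 and 338 CPM on day 28 and 396, 421 and 694 CPM on day 14 (log2 fold change -0.75, SE 0.28, edgeR adjusted p = 0.251). Interferon response genes had a median of -0.71 over 22 tested genes, with 0 at an unadjusted p under 0.05 in either direction. Leaving out MI day 14 replicate 2 gave -0.07, and the 13 alternatives ranged from -1.07 to -0.07. IFI6 had 47.8 and 108 CPM on day 28 and 92.1, 258 and 60.8 CPM on day 14, with the second day 14 pig the highest.

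Adipocyte markers were high in 1 day 28 pig. ADIPOQ, the adiponectin gene, had 116 and 0.0339 CPM on day 28 and 2.16, 0.121 and 0.00981 CPM on day 14, and PLIN1, which coats lipid droplets, had 5.27 and 0.118 CPM on day 28 and 0.088, 0.0362 and 0.0883 CPM on day 14. The summed level of the 14 listed adipocyte genes was 2544 and 594 CPM on day 28 and 1109.7, 724 and 1582 CPM on day 14. LPL, given above with the fatty acid genes, made up most of each of these sums, and LEP was at most 0.0932 CPM. Replicate 1 had the highest value of the 5 libraries for 8 of 13 tested adipocyte genes (25.0% of all genes). The list median was 0.82, and -0.32 without MI day 28 replicate 1. Erythroid genes were highest in the same pig: HBB, the beta globin chain, had 333 and 84.3 CPM on day 28 and 87.98, 44.7 and 105 CPM on day 14. Endothelial markers had 4 of 26 tested genes higher (8.13% of all genes) and 0 lower (6.8%) at an unadjusted p under 0.05. Their median was 0.32, and it was -0.12 without replicate 1 and 0.57 without replicate 2. PECAM1 had 442 and 263 CPM on day 28 and 358, 249 and 248 CPM on day 14. In the smooth muscle list, MYH11 had 303 and 66.8 CPM on day 28 and 134, 90.6 and 41.8 CPM on day 14, again with replicate 1 highest, and DES, which cardiomyocytes also express, had 4319 and 3388 CPM on day 28 and 5053, 4886 and 4182 CPM on day 14.

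Growth factor, imprinted, hypoxia and clock genes had 0 calls by edgeR. At an unadjusted p under 0.05, 1 of 17 tested hypoxia genes was higher and 2 were lower. For the 18 clock genes these counts were 2 and 0. Over all genes 8.13% were higher and 6.8% lower. Of 30 neuregulin, IGF and growth factor signalling genes 4 were higher and 3 lower at an unadjusted p under 0.05, and the median log2 fold change was 0.11, or 0.07 without MI day 28 replicate 1 and -0.03 without replicate 2. IGFBP5 had 565 and 285 CPM on day 28 and 212, 288 and 459 CPM on day 14, and FSTL1, a secreted factor of the epicardium, had 299 and 933 CPM on day 28 and 784, 901 and 725 CPM on day 14. ERBB4, the neuregulin receptor of cardiomyocytes, had 2.38 and 1.71 CPM on day 28 and 18.3, 2.52 and 13.6 CPM on day 14. Of 18 tested imprinted and fetal growth genes 3 were lower and 0 higher, among them HMGA1, a chromatin protein of growing tissue, with 61.95 and 51.6 CPM on day 28 and 84.8, 87.5 and 80.5 CPM on day 14 (log2 fold change -0.57, SE 0.21, edgeR adjusted p = 0.247). EGLN3, an oxygen sensor that hypoxia induces, had 73.2 and 75.2 CPM on day 28 and 186, 116 and 141 CPM on day 14 (log2 fold change -0.99, SE 0.33, edgeR adjusted p = 0.238). PER1, a clock gene that glucocorticoids also induce, had 498 and 68.8 CPM on day 28 and 36.4, 77.03 and 157 CPM on day 14, and was high in replicate 1.

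**Figure D5:**
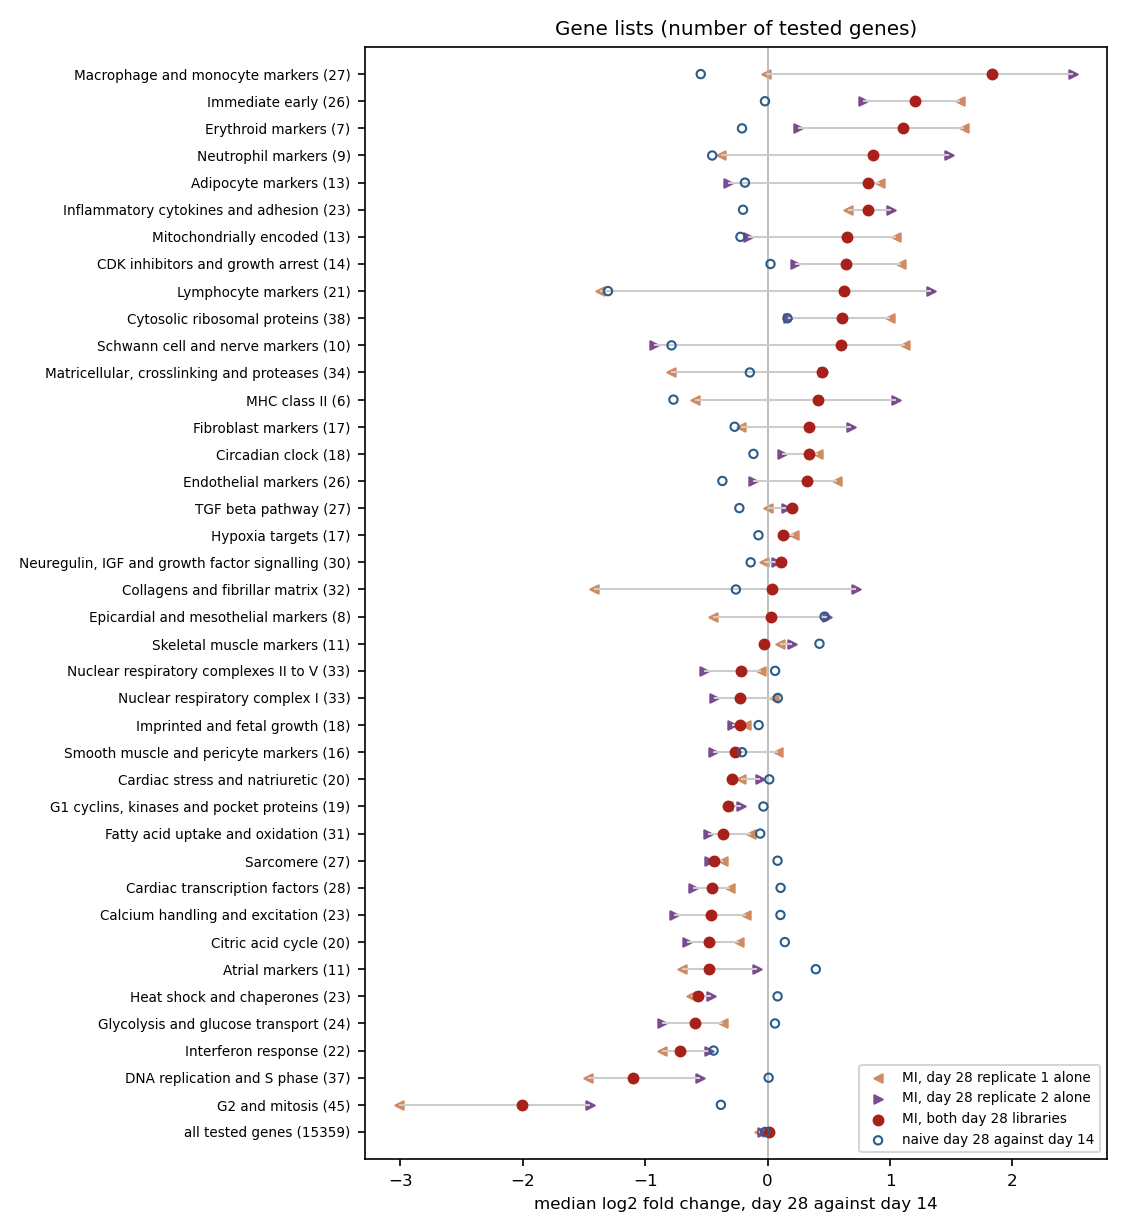
Median log2 fold change of day 28 against day 14 (horizontal axis) for each of 39 gene lists and for all tested genes, with the number of tested genes after each name. Filled circles use both MI day 28 libraries, triangles use 1 of them, and open circles are the naive hearts. The mitosis, replication, heat shock and immediate early medians lie on 1 side of 0 with either MI day 28 library, while the macrophage, lymphocyte and collagen medians move across or to 0 when replicate 1 stands alone.

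Across the 39 lists, 18 medians kept their sign in all alternatives that could be computed. These include mitosis, replication, immediate early, inflammatory, heat shock, sarcomere, calcium, transcription factor, glycolysis and ribosomal protein genes. The lists are compared with all genes by counts and medians only, and the lists overlap in some genes. For every list, the shares of all genes at an unadjusted p under 0.05 are 8.13% higher and 6.8% lower.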

How the data were processed

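The values are raw counts as deposited, of 25880 Ensembl genes in 21 libraries. The submitters' processing notes name Trim Galore, STAR 2.5.2, the Sscrofa11.1 build, HTSeq 0.6.1 and DESeq2. The annotation release and strand setting were not given in the sources used here, so reads of genes that overlap on opposite strands cannot be told apart. Samples were grouped by their labels. Replicate numbers follow sample order and pair nothing. The deposited table gave a symbol for 17947 genes, a table of names added 807, and 7126 had none. Where IDs shared a symbol (1952 additional IDs), the one with the highest total count was used.

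In edgeR 4.0.16, 15359 genes passed filterByExpr on the 8 groups, and libraries were scaled by TMM. A quasi-likelihood model (glmQLFit, robust) was fitted to all 21 libraries with 1 mean per group, 13 residual degrees of freedom and a biological coefficient of variation of 0.373. Contrasts were tested two-sided (glmQLFTest) with Benjamini-Hochberg adjustment over 15359 genes. SEs came from the F statistic. Each library is 1 pig, so p-values measure the spread between pigs. That spread is shared over the 8 groups and is not that of the MI day 28 pigs alone. The 2 day 28 libraries limit the precision.

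The members and the 39 gene lists were chosen with earlier results of these data known. Named by rule were the called genes with a symbol, up to 4 called members of each list or else its 2 most abundant, the 5 interaction genes with a symbol and the smallest p per direction, and MKI67, CCNB1, COL1A1, COL3A1, POSTN, MYH6, MYH7, TNNI1, TNNI3, NPPA, NPPB, IGF2, H19, CD68 and ADIPOQ. All other genes were named after their values were seen, for a small p in a list or among all genes, or as examples. Some genes are not reported here. Alternatives were the size factors of DESeq2 1.42.0, its Wald test, voom with sample weights (limma 3.58.1), no count filter, mitochondrially encoded genes left out, only the groups compared, a term for or removal of the set of 4 libraries, and each library left out in turn. Positions, promoters and 3′ UTRs are from RefSeq on Sscrofa11.1, matched by symbol. Analyses used R 4.3.3, and figures matplotlib 3.10.9.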

Additional observations from a re-analysis of the deposited data

How the results depend on the processing

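In MI hearts the count of called genes was 278 by the DESeq2 Wald test (214 higher, 64 lower), 0 by voom with sample weights, 0 in the fit to the 5 libraries alone, 0 with a term for the set of 4 libraries and 765 without that set (456 higher, 309 lower). Leaving out 1 library gave 0 to 403 calls. The interaction had 33 calls by DESeq2 and 143 without the set of 4 libraries, and 0 to 92 calls with 1 library left out. Other size factors (7 calls), no count filter (6) and leaving out mitochondrially encoded genes (7) gave counts close to the 6 reported, and naive hearts had 0 calls in all alternatives run. The calls without MI day 28 replicate 1 and those without replicate 2 share 10 genes, 4.22% of the 237 and 2.48% of the 403. The reported edgeR fit assumes the same spread of a gene in all 8 groups, although the 2 MI day 28 libraries were the least alike of the 5. Fits that keep 1 MI day 28 library take its spread from the other groups alone. The cause of these differences was not tested. The genes printed above with a log2 fold change and SE kept their sign in the 13 alternatives, but some genes given only in CPM did not. Without MI day 28 replicate 2 the log2 fold change went from 2.59 to -0.24 for CD68 and from 2.26 to -2.06 for CD4. Without replicate 1 it went from 6.29 to -4.37 for ADIPOQ and from 1.65 to -0.36 for PER1. No paired analysis was possible because the titles name a different pig for each library. Depth limits genes near or under 1 CPM.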

Other observations

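Some further genes differed strongly between the day 28 pigs, and they are given as values chosen after they were seen. SLAMF9, a receptor of myeloid cells, had 0 and 17.6 CPM on day 28 and at most 0.0723 CPM in the day 14 libraries. STAB1, a scavenger receptor of macrophages and sinusoidal endothelium, had 57.3 and 318 CPM on day 28 and 29.7, 51.7 and 42.2 CPM on day 14. OTUD1, a deubiquitinase, had 133 and 43.6 CPM on day 28 and 8.68, 6.43 and 12.7 CPM on day 14, so both day 28 pigs were above all day 14 pigs, most of all replicate 1. AREG, a ligand of the EGF receptor, had 4.91 and 0.389 CPM on day 28 and at most 0.167 CPM on day 14.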
